A study of Mus musculus with 8 samples.

Results

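The genes described here are the named enzymes and factors that copy DNA and supply its nucleotides, from origin licensing through the replication fork to chromatin assembly. They were chosen by gene name: 47 were named and 46 were found among 26873 features, each under 1 identifier. The 47th, E2f1, was not found under that name and is not analysed here. All 46 had enough counts to be tested, among 15942 genes that did.

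Messenger RNA was measured in 8 libraries of a wild-type (WT) line labelled as bone marrow mesenchymal stem cells (BMSCs), all in osteogenic differentiation, in medium conditioned by polycaprolactone (PCL) scaffolds. The scaffold arms are PCL-SE (read as carrying S7 and E7, which the series title calls peptides), PCL-S (S7), PCL-E (E7) and PCL-O (taken as the blank by elimination), each with 1 library on day 3 and 1 on day 7. The extraction protocol speaks of n = 3 samples; pooling of RNA and clonality of the line are not stated in the sources used here. The labels give Mus musculus, whereas the named features carry rat Ensembl identifiers, so the species is unsettled. The arms with S7 (PCL-SE and PCL-S) were set against the arms without it (PCL-E and PCL-O), 2 libraries a side on each day.

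Replication begins when the origin recognition complex (ORC), Cdc6 and Cdt1 load the MCM helicase onto DNA in G1, and it fires when Cdc45 and the GINS complex join that helicase in S phase. Polymerase alpha with primase lays down primers, polymerases delta and epsilon extend them, and the sliding clamp PCNA, placed by replication factor C (RFC), holds polymerases on the template. Transcription of many of these genes is driven by E2F factors as cells pass from G1 into S phase, and stromal progenitors divide in culture before they deposit bone matrix.

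Promoter windows, from 250 bases before to 50 after the start of each gene, were taken from RefSeq (mouse, GRCm38.p6) and matched by symbol for 39 of the 46 genes, in 46 windows. They are mouse sequences, whatever the species of the cells. The E2F consensus searched was TTT, then 2 bases each C or G, then CGC, in its 4 spellings TTTCCCGC, TTTCGCGC, TTTGCCGC and TTTGGCGC, on both strands. It was present in 16 of the 46 windows (34.8%), against 2.26% of all 32851 windows of the same length. The CCAAT box was present in 58.7% of the 46 windows, against 37.4% of all windows. Below are 4 windows with the E2F spelling, from a pair of genes called higher with S7 on day 7 (Mcm6, Cdt1) and a pair called lower (Cdc6, Pola1). Capitals mark the E2F spellings.
Mcm6 promoter (chr1:128359656-128359955, minus strand): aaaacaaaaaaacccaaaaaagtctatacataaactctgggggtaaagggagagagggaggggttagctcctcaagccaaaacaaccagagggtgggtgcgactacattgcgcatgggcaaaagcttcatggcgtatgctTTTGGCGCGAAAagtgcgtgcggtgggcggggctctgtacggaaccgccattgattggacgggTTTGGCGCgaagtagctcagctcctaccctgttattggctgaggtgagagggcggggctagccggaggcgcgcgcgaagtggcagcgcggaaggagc
Cdt1 promoter (chr8:122567765-122568064, plus strand): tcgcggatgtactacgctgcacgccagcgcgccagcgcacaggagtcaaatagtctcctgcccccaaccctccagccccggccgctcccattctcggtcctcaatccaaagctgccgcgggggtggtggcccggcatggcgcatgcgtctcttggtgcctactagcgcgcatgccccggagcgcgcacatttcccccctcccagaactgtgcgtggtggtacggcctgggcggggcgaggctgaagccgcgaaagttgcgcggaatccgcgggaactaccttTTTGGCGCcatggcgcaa
Cdc6 promoter (chr11:98907901-98908200, plus strand): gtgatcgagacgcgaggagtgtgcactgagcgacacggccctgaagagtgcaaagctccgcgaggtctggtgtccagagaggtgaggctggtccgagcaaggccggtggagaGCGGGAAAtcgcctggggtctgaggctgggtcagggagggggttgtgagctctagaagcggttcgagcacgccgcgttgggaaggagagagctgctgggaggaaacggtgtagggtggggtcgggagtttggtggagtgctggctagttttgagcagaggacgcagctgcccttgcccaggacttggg
Pola1 promoter (chrX:93632106-93632405, minus strand): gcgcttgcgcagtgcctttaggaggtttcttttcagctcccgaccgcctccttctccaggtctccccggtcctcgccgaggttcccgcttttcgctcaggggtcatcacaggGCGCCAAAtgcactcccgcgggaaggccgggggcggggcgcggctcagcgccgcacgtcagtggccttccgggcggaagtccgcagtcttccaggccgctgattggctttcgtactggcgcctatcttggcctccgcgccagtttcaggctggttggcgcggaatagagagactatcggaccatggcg
The Mcm6 window held 3 matches, of which the pair farther upstream overlaps on opposite strands; the other windows held 1 each. In Cdc6 and Pola1 the match lies at the same distance, 138 bases before the start, and in Cdt1 it lies after the start. By the day 7 S7 comparison, the spelling was present in 4 of 19 windows of genes called higher, 2 of 3 windows of genes called lower and 10 of 24 windows of genes not called.

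Total counts ran from 32950326 to 41754124 per library, so a floor of 3 counts lies at 0.0718 to 0.0910 CPM (reads of a gene per fixed number of reads in the library), and such floors cover counting error only. Printed CPM are scaled to the library total; fold changes use trimmed mean (TMM) scaling, whose factors were 1.16 (PCL-SE) and 1.15 (PCL-S) for day 7 with S7, and 0.928 to 1.02 in the other 6 libraries. Differences were tested in a single edgeR fit over all 8 libraries, with terms for S7, day, S7 by day and E7, and called where the Benjamini-Hochberg adjusted p was under 0.05. The p-values judge each effect against the departure of the arms from these terms, not against variation between cultures. Of the stromal markers, Thy1, Eng, Cd44 and Itgb1 were present in every library, whereas the leukocyte gene Ptprc reached at most 0.0533 CPM and the endothelial genes Cdh5 and Emcn had no counts. The 8 blood and macrophage markers summed to 17.9 and 16.3 CPM in PCL-SE and PCL-S of day 3, against 7.58 and 7.01 CPM in PCL-E and PCL-O. Their day 7 sums were 18.8 and 20.1 CPM with S7, against 10.0 and 11.0 CPM without it, nearly all of it Cd14. The endothelial list, almost all Tek, summed to 14.3 and 12.8 CPM in PCL-SE and PCL-S on day 3, against 6.37 and 5.42 CPM in PCL-E and PCL-O, and to between 3.25 and 4.31 CPM in all 4 libraries of day 7. The 5 adipocyte markers summed to 2.21 and 3.61 CPM in PCL-SE and PCL-S on day 7, against 0.455 CPM in PCL-E and 0 in PCL-O. Nearly all of it was Fabp4, at 2.16 and 3.55 CPM in PCL-SE and PCL-S. The 5 cartilage markers summed to 192 and 178 CPM in PCL-SE and PCL-S on day 3, against 286 and 519 CPM in PCL-E and PCL-O. They summed to 103 and 90.01 CPM with S7 on day 7, against 373 and 344 CPM without it. The skeletal muscle list summed to 72.2 and 72.1 CPM with S7 on day 3, against 172 and 265 CPM, and to 2.61 and 3.79 CPM on day 7, against 34.0 and 99.1 CPM. The sum of the 9 stromal markers, mostly the collagen genes Col1a1 and Col1a2, went opposite ways by day. It was 46187 and 49436 CPM with S7 on day 3, against 33381 and 31530 CPM. On day 7 it was 10595 and 11024 CPM, against 26394 and 39180 CPM. The 9 markers did not move together, as 2 were called higher with S7 on day 7 and 5 lower, against 24.9% and 26.2% of all genes. Cytosolic ribosomal protein genes summed to 21540.1 and 21005 CPM with S7 on day 3, against 17186 and 16091 CPM, and to 35752 and 35363 CPM on day 7, against 20472 and 15068 CPM. These lists moved with S7, and their part in the results was not tested. In bulk RNA, fewer cells of a type and less RNA per cell cannot be told apart.

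On day 3 the S7 libraries held more of nearly every replication gene, and on day 7 the genes split between higher and lower. Summed over the 46 genes, PCL-SE and PCL-S held 1431 and 1396 CPM on day 3, against 1108 and 968 CPM in PCL-E and PCL-O. On day 7 the sums were 1472 and 1541 CPM in PCL-SE and PCL-S, against 1219 and 1079.6 CPM in PCL-E and PCL-O. The sum was thus higher with S7 on both days, and PCL-O was the lowest library of each day.

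On day 3, 20 of the 46 genes were called higher with S7, against 7.1% of all genes tested, and 0 were called lower, against 6.87% of all genes (edgeR's quasi-likelihood test with Benjamini-Hochberg adjustment). At an unadjusted p under 0.05, 27 were higher and 0 lower, where 4646 of all 15942 genes passed in either direction. DESeq2 called 21 higher and 0 lower, against 1341 and 1349 of all genes. The median log2 fold change was 0.46 over the 46 genes and 0.0032 over all genes. On TMM-normalised CPM, both S7 libraries lay above both others in 43 of the 46, against 35.2% of all genes. They lay below both others in 0, against 33.4% of all genes. On the printed CPM fewer of the 46 lay above, and no share over all genes was computed on that scale. With a single library per arm the count rests on every day 3 library. It fell when any of them was left out, as did the calls over all genes.

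On day 7, 20 genes were called higher with S7 and 5 lower, against 24.9% and 26.2% of all genes, so the share called higher (20 of 46) stood above that background and the share called lower below it. The median was 0.15, against -0.03 over all genes. When libraries were scaled by their totals, the median of all genes moved to 0.19, the median of the 46 to 0.37, and the calls to 23 higher and 2 lower. Over all 15942 genes that scaling called 5642 higher and 3010 lower, where TMM scaling called 3965 and 4172. On TMM-normalised CPM, both S7 libraries lay above both others in 21 genes (36.7% of all genes) and below them in 12 (38.4% of all genes). On the printed CPM more of the 46 lay above and fewer below, so for day 7 the scale decides whether several genes overlap. No share over all genes was computed on the printed CPM, so those positions have no background to be set against. Without PCL-S or PCL-SE of day 7, fewer of the 46 and fewer of all genes were called in each direction. The count called lower also fell without PCL-S or PCL-SE of day 3, as it did over all genes.

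On both days 8 genes were called higher, against 3.14% of all genes: Mcm2, Mcm6, Prim1, Pold1, Pold3, Rfc5, Rpa1 and Chaf1a. Another 3 were called higher on day 3 and lower on day 7 (1.45% of all genes), namely Mcm4, Pola1 and Ccne2. Called higher on day 7 alone were 12 genes (21.2% of all genes), higher on day 3 alone 9 (2.52% of all genes) and lower on day 7 alone 2 (19.8% of all genes), while 12 were called on neither day (45.0% of all genes). Being called on a single day is not a test of the difference between days. That difference, the interaction of S7 with day, was called in 14 genes (28.7% of all genes in either direction, a share close to that of these genes): 2 with a higher S7 effect on day 7 (13.2% of all genes were) and 12 with a lower one (15.5% of all genes were). Scaling by library totals changed this split to 7 and 10, against 3721 and 1750 of all 15942 genes. The number with a lower effect fell without PCL-O, PCL-S or PCL-SE of day 3 or PCL-SE of day 7, as it did over all genes. The number with a higher effect fell in each of these fits and without PCL-E of day 3 or PCL-S of day 7. It rose without PCL-E of day 7. The number with a higher effect moved the same way over all genes in each case.

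**Figure D1:**
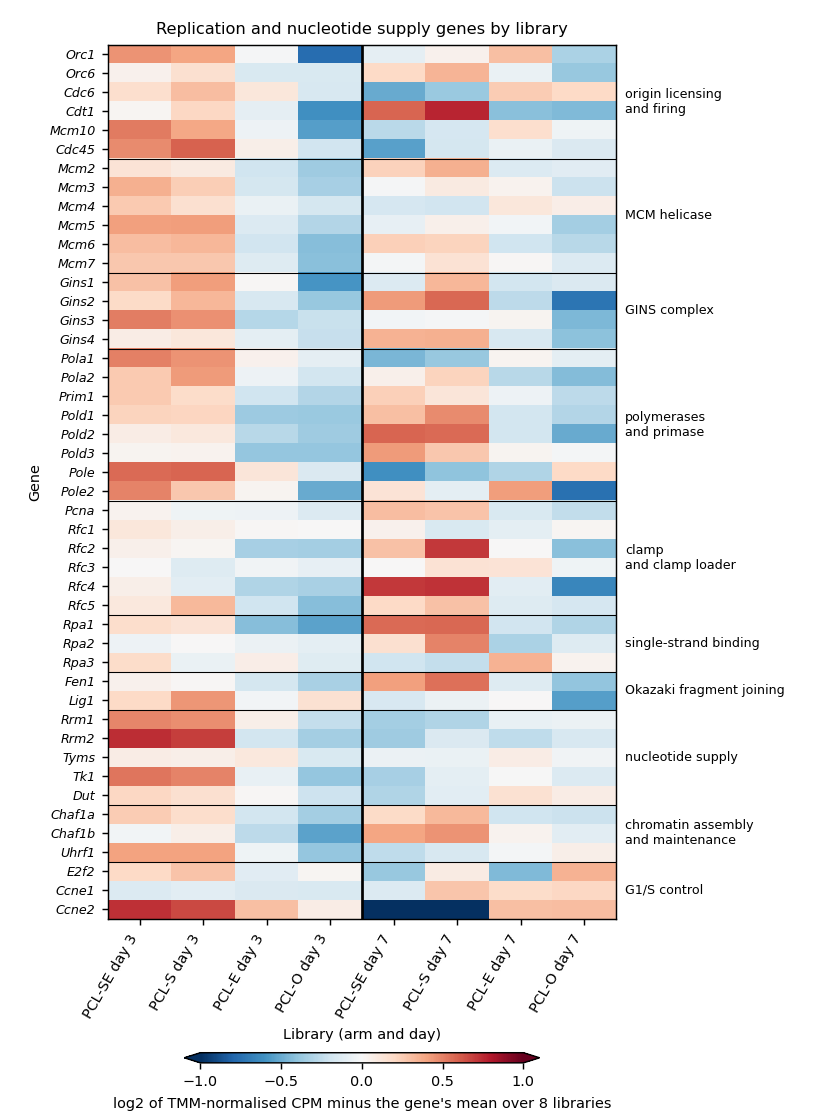
Each cell shows the log2 of TMM-normalised CPM of 1 gene in 1 library minus that gene's mean over the 8 libraries, with genes in rows by role and libraries in columns. The day 3 columns of PCL-SE and PCL-S are above the mean for most genes, and their day 7 columns hold cells well above the mean, as for Rfc4 and Cdt1, and well below it, as for Ccne2.

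**Figure D2:**
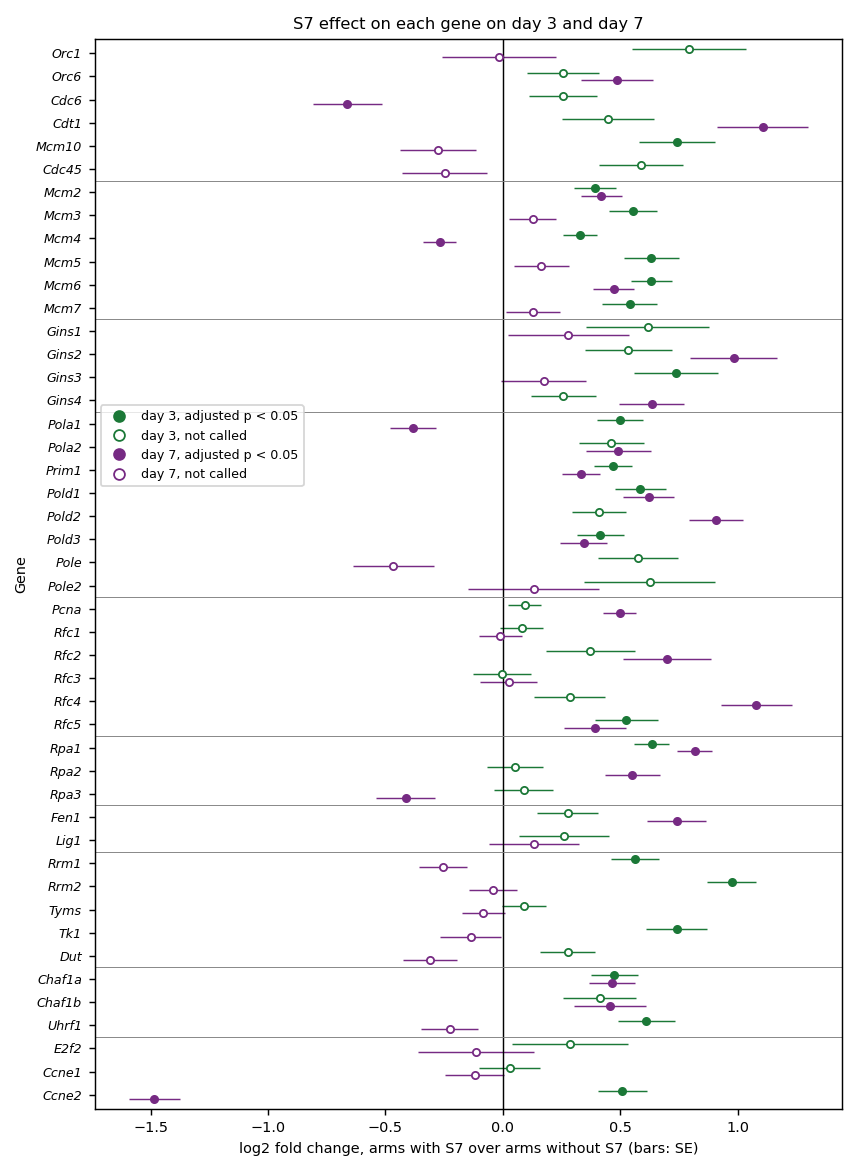
Points are log2 fold changes of the arms with S7 over the arms without it for each of the 46 genes, green for day 3 and purple for day 7, with bars of 1 standard error; filled points passed an adjusted p of 0.05. All filled day 3 points are above 0, whereas 20 filled day 7 points are above 0 and 5 below it.

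Origin licensing and firing genes were called in both directions on day 7. Cdt1, which brings the MCM helicase to origins, had 16.5 and 18.5 CPM in PCL-SE and PCL-S, against 7.26 and 6.68 CPM in PCL-E and PCL-O on day 7, groups that did not overlap (log2 fold change 1.11 ± 0.19, adjusted p = 0.00368 by edgeR's quasi-likelihood test with Benjamini-Hochberg adjustment). On day 3 it had 9.01 and 10.2 CPM in PCL-SE and PCL-S, against 8.50 and 5.82 CPM in PCL-E and PCL-O, also without overlap, and the difference did not pass the test (0.45 ± 0.20, adjusted p = 0.186). Cdc6, the ATPase that loads the helicase together with Cdt1, went the other way on day 7.

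Cdc6 had 9.12 and 9.98 CPM in PCL-SE and PCL-S, against 13.6 and 12.3 CPM in PCL-E and PCL-O on day 7, and both S7 libraries were below both others (-0.66 ± 0.15, adjusted p = 0.00908). On day 3 both were above, with 11.8 and 12.9 CPM in PCL-SE and PCL-S, against 11.6 and 9.36 CPM in PCL-E and PCL-O, which did not pass the test (0.26 ± 0.14, adjusted p = 0.298). The S7 effect on Cdc6 was lower on day 7 than on day 3 by an interaction of -0.92 ± 0.21, adjusted p = 0.0183. Loading partners of the same helicase were therefore called in opposite directions on day 7.

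Mcm10, a scaffold of the firing fork, had 15.2 and 13.8 CPM in PCL-SE and PCL-S, against 10.4 and 7.21 CPM in PCL-E and PCL-O on day 3 (0.74 ± 0.16, adjusted p = 0.0278). On day 7 its groups overlapped in the printed CPM, at 10.9 and 11.6 CPM in PCL-SE and PCL-S, against 13.005 and 10.5 CPM in PCL-E and PCL-O, whereas with TMM they were apart, at 9.41 and 10.1 TMM-normalised CPM with S7, against 12.8 and 11.0 without it. The interaction was -1.02 ± 0.23, adjusted p = 0.0182, lost after removal of a gene length trend. Cdc45, a subunit of the active helicase, had 9.22 and 9.91 CPM in PCL-SE and PCL-S, against 7.03 and 5.82 CPM in PCL-E and PCL-O on day 3 (0.59 ± 0.18, adjusted p = 0.0765); it was not called on either day, and its interaction was -0.84 ± 0.25, adjusted p = 0.0492, a call lost under total-count scaling, DESeq2, no low-count filter, an E7 by day term and removal of a gene length trend.

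Orc1, the largest ORC subunit, had 8.22 and 7.81 CPM in PCL-SE and PCL-S, against 6.05 and 3.53 CPM in PCL-E and PCL-O on day 3, with PCL-O the lowest (0.79 ± 0.24, adjusted p = 0.0777), and was not called on either day, though a fit with an S7 by E7 term called it on day 3 (adjusted p = 0.0263). Orc6, the smallest subunit, had 12.4 and 13.7 CPM in PCL-SE and PCL-S, against 9.10 and 6.89 CPM in PCL-E and PCL-O on day 7 (0.48 ± 0.15, adjusted p = 0.0358). That call was lost with an E7 by day term and after removal of the gene length trend. In all, 1 of the 6 origin genes was called higher on day 3 (7.1% of all genes), and on day 7 the calls were 2 higher and 1 lower (24.9% and 26.2% of all genes), so the day 7 counts are near the background.

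The 6 MCM genes, whose products form the ring-shaped replicative helicase, were all called higher with S7 on day 3, against 7.1% of all genes, with log2 fold changes between 0.33 and 0.63; Mcm4 lost its call with an E7 by day term. Mcm6 had 59.2 and 59.7 CPM in PCL-SE and PCL-S, against 42.4 and 35.4 CPM in PCL-E and PCL-O on day 3 (0.63 ± 0.09, adjusted p = 0.00625). On day 7 it had 69.7 and 68.4 CPM in PCL-SE and PCL-S, against 45.2 and 40.1 CPM in PCL-E and PCL-O (0.47 ± 0.09, adjusted p = 0.00452), so its groups stood apart on both days. Mcm2, which also binds histones, was likewise called on both days, with 65.3 and 62.5 CPM in PCL-SE and PCL-S, against 52.4 and 46.2 CPM in PCL-E and PCL-O on day 3 (0.39 ± 0.09, adjusted p = 0.0317). Its day 7 values were 86.0 and 93.0 CPM in PCL-SE and PCL-S, against 58.7 and 55.9 CPM in PCL-E and PCL-O (0.42 ± 0.09, adjusted p = 0.00766).

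Mcm4, another ring subunit, had 71.7 and 66.1 CPM in PCL-SE and PCL-S, against 58.0 and 52.8 CPM in PCL-E and PCL-O on day 3 (0.33 ± 0.07, adjusted p = 0.028), the call that the E7 by day term removed. On day 7 the printed CPM overlapped, at 65.8 and 64.3 CPM in PCL-SE and PCL-S, against 70.4 and 63.9 CPM in PCL-E and PCL-O, whereas with TMM the S7 libraries were below the others, at 56.9 and 55.9 TMM-normalised CPM with S7, against 69.0 and 66.9 without it. The fitted day 7 effect was below 0 (-0.27 ± 0.07, adjusted p = 0.0192), which total-count scaling took to -0.045 and out of the calls, as removal of the length trend did too. Its interaction was -0.60 ± 0.10, adjusted p = 0.00783.

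The ring subunits Mcm3, Mcm5 and Mcm7 were called on day 3 at 0.55 ± 0.10, 0.63 ± 0.12 and 0.54 ± 0.12. On day 7 none of these 3 passed the test; Mcm5, for example, had 45.1 and 49.4 CPM in PCL-SE and PCL-S, against 41.4 and 31.3 CPM in PCL-E and PCL-O (0.16 ± 0.12, adjusted p = 0.281). Under total-count scaling, the scale of the printed CPM, Mcm5 was called higher on day 7 (0.39 ± 0.13, adjusted p = 0.0414). Subunits of a single ring were thus called higher, lower or not at all on day 7. Of the 6, 2 were called higher and 1 lower, against 24.9% and 26.2% of all genes. The lower call, of Mcm4, was lost under total-count scaling, so this split depends on the scale.

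The GINS complex joins Cdc45 and the MCM ring to make the working helicase. Gins2 had 14.5 and 16.0 CPM in PCL-SE and PCL-S, against 7.95 and 5.37 CPM in PCL-E and PCL-O on day 7 (0.98 ± 0.18, adjusted p = 0.00484). It had 9.98 and 10.9 CPM in PCL-SE and PCL-S, against 7.95 and 6.69 CPM in PCL-E and PCL-O on day 3, which did not pass the test (0.53 ± 0.18, adjusted p = 0.107). Gins4 had 12.4 and 12.4 CPM in PCL-SE and PCL-S, against 7.69 and 6.07 CPM in PCL-E and PCL-O on day 7 (0.63 ± 0.14, adjusted p = 0.0087). Both genes stood apart between the groups of that day, while Gins1 was called on neither.

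Gins3 was the GINS gene called on day 3, with 8.43 and 8.08 CPM in PCL-SE and PCL-S, against 4.93 and 5.07 CPM in PCL-E and PCL-O (0.74 ± 0.18, adjusted p = 0.0404). The call was lost under total-count scaling and with either added E7 interaction term.

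Polymerase and primase genes were called higher in 4 of 8 cases on day 3 (7.1% of all genes), and in 5 of 8 on day 7 (24.9% of all genes) with 1 lower (26.2% of all genes). Pold2, an accessory subunit of the lagging-strand polymerase delta, had 34.3 and 33.7 CPM in PCL-SE and PCL-S, against 17.8 and 13.4 CPM in PCL-E and PCL-O on day 7 (0.91 ± 0.11, adjusted p = 0.00102). It had 19.5 and 19.7 CPM in PCL-SE and PCL-S, against 15.5 and 14.4 CPM in PCL-E and PCL-O on day 3 (0.41 ± 0.11, adjusted p = 0.0609), where the groups were apart but not called, except after length-trend removal (adjusted p = 0.0427). The catalytic subunit Pold1 was called on both days, with 19.3 and 18.9 CPM in PCL-SE and PCL-S, against 12.997 and 12.7 CPM in PCL-E and PCL-O on day 3 (0.59 ± 0.11, adjusted p = 0.0165). Day 7 gave 25.0 and 28.1 CPM in PCL-SE and PCL-S, against 15.9 and 13.7 CPM in PCL-E and PCL-O (0.62 ± 0.11, adjusted p = 0.00354).

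Pold3, a further delta subunit, was called at 0.42 ± 0.10 on day 3 and 0.34 ± 0.10 on day 7, and the day 3 call was lost under total-count scaling, without the low-count filter and with either added E7 interaction term. Prim1, the catalytic primase subunit, had 35.8 and 33.6 CPM in PCL-SE and PCL-S, against 26.4 and 24.3 CPM in PCL-E and PCL-O on day 3 (0.47 ± 0.08, adjusted p = 0.0128). The day 7 values were 43.4 and 40.0 CPM in PCL-SE and PCL-S, against 31.4 and 25.5 CPM in PCL-E and PCL-O (0.33 ± 0.08, adjusted p = 0.0129). Delta and primase genes therefore kept the S7 libraries on the high side of both days.

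Pola1, the catalytic subunit of polymerase alpha, had 28.2 and 26.9 CPM in PCL-SE and PCL-S, against 20.8 and 18.7 CPM in PCL-E and PCL-O on day 3 (0.50 ± 0.10, adjusted p = 0.0191). On day 7 it had 17.9 and 18.8 CPM in PCL-SE and PCL-S, against 22.2 and 19.0 CPM in PCL-E and PCL-O, with both S7 libraries below both others by a small margin (-0.38 ± 0.10, adjusted p = 0.0165); total-count scaling took that effect to -0.16 and out of the calls. Its interaction was -0.88 ± 0.14, adjusted p = 0.00618. Its partner Pola2 was called higher on day 7 instead, with 13.9 and 15.6 CPM in PCL-SE and PCL-S, against 9.77 and 8.22 CPM in PCL-E and PCL-O (0.49 ± 0.14, adjusted p = 0.0237).

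Pole, the catalytic subunit of the leading-strand polymerase epsilon, had 37.9 and 38.2 CPM in PCL-SE and PCL-S, against 28.4 and 23.2 CPM in PCL-E and PCL-O on day 3 (0.57 ± 0.17, adjusted p = 0.0705). Its levels on day 7 were 20.7 and 23.9 CPM in PCL-SE and PCL-S, against 22.7 and 30.0 CPM in PCL-E and PCL-O (-0.47 ± 0.17, adjusted p = 0.0579). Neither day passed the test in the fit reported here, while DESeq2 and the fit with an E7 by day term called day 3 higher and day 7 lower, length-trend removal called day 3 and omission of the E7 term called day 7. The day 7 groups overlap in these CPM and were apart with TMM, at 17.9 and 20.8 TMM-normalised CPM with S7, against 22.2 and 31.5 without it. The change between days was -1.04 ± 0.24, adjusted p = 0.0205, lost after removal of the length trend. The smaller subunit Pole2 stayed between 1.61 and 3.83 CPM in all 8 libraries and was not called.

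Of the 6 clamp and clamp loader genes, 1 was called higher on day 3 (7.1% of all genes) and 4 on day 7 (24.9% of all genes). Pcna, the sliding clamp, had 102 and 99.7 CPM in PCL-SE and PCL-S, against 65.3 and 57.1 CPM in PCL-E and PCL-O on day 7 (0.50 ± 0.07, adjusted p = 0.00159). On day 3 the groups overlapped in the printed CPM, at 68.4 and 64.0 CPM in PCL-SE and PCL-S, against 65.2 and 60.4 CPM in PCL-E and PCL-O (0.09 ± 0.07, adjusted p = 0.443). Pcna was 1 of the 2 genes whose S7 effect was higher on day 7, by 0.41 ± 0.10, adjusted p = 0.0252.

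The other, Rfc4, is a subunit of the clamp loader. It had 33.2 and 33.4 CPM in PCL-SE and PCL-S, against 16.6 and 10.7 CPM in PCL-E and PCL-O on day 7 (1.08 ± 0.15, adjusted p = 0.00148). On day 3 it had 17.1 and 15.2 CPM in PCL-SE and PCL-S, against 13.6 and 13.2 CPM in PCL-E and PCL-O (0.28 ± 0.15, adjusted p = 0.267). The S7 libraries were above the others on both days, and the interaction was 0.80 ± 0.21, adjusted p = 0.0322, lost with an E7 by day term (adjusted p = 0.051).

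Among other loader subunits, Rfc2 had 23.1 and 30.6 CPM in PCL-SE and PCL-S, against 16.7 and 11.7 CPM in PCL-E and PCL-O on day 7 (0.70 ± 0.19, adjusted p = 0.0192). Rfc5 was called on both days at 0.53 ± 0.13 and 0.39 ± 0.13, but lost the day 3 call under total-count scaling and the day 7 call under DESeq2 and length-trend removal, and both with an E7 by day term. Rfc1, the large subunit, ran from 47.6 to 60.4 CPM over all 8 libraries and Rfc3 from 11.6 to 17.3 CPM, and neither was called on either day. Subunits of a single loader thus ranged from uncalled to the day 7 increase of Rfc4.

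Replication protein A (RPA) coats single-stranded DNA at the fork. Its large subunit Rpa1 had 69.8 and 67.1 CPM in PCL-SE and PCL-S, against 46.7 and 42.5 CPM in PCL-E and PCL-O on day 3 (0.63 ± 0.07, adjusted p = 0.0038). Day 7 levels were 113 and 112 CPM in PCL-SE and PCL-S, against 58.8 and 50.9 CPM in PCL-E and PCL-O (0.82 ± 0.07, adjusted p = 0.000337). These averaged 113 ± 0.395 CPM with S7 and 54.9 ± 5.55 CPM without it (SD, n = 2 arms each). The 2 arms of a side differ in E7, so the SD is not a spread of replicates. Rpa1 had the smallest adjusted p of the genes called higher on day 7.

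The middle subunit Rpa2 was called higher on day 7, with 24.9 and 31.3 CPM in PCL-SE and PCL-S, against 15.8 and 16.9 CPM in PCL-E and PCL-O (0.55 ± 0.12, adjusted p = 0.00791). The small subunit Rpa3 was called lower, although its printed CPM overlapped, at 10.9 and 10.5 CPM in PCL-SE and PCL-S, against 14.0 and 10.6 CPM in PCL-E and PCL-O; with TMM the groups were apart, at 9.39 and 9.13 TMM-normalised CPM with S7, against 13.7 and 11.1 without it (-0.41 ± 0.13, adjusted p = 0.0307). Total-count scaling took the Rpa3 effect to -0.19 and out of the calls, and so did an E7 by day term.

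Okazaki fragments are trimmed by the flap nuclease Fen1 and sealed by the ligase Lig1. Fen1 had 24.3 and 26.7 CPM in PCL-SE and PCL-S, against 14.8 and 11.5 CPM in PCL-E and PCL-O on day 7 (0.74 ± 0.13, adjusted p = 0.00335). It had 15.3 and 14.8 CPM in PCL-SE and PCL-S, against 13.3 and 11.9 CPM in PCL-E and PCL-O on day 3, apart but not called (0.28 ± 0.13, adjusted p = 0.209). Lig1 had 21.9 and 23.3 CPM in PCL-SE and PCL-S, against 21.6 and 13.8 CPM in PCL-E and PCL-O on day 7, and it was not called on either day.

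Of the 5 nucleotide supply genes, 3 were called higher with S7 on day 3 (7.1% of all genes), and none passed the test on day 7 in the fit reported here (24.9% of all genes were called higher and 26.2% lower). Rrm2, the regulatory subunit of ribonucleotide reductase that limits deoxynucleotide production, had 95.1 and 91.3 CPM in PCL-SE and PCL-S, against 51.0 and 45.0 CPM in PCL-E and PCL-O on day 3. These averaged 93.2 ± 2.66 CPM with S7 and 48.0 ± 4.27 CPM without it (SD, n = 2 arms each, which differ in E7 and are not replicates). The S7 effect on Rrm2 was the largest of day 3 among the 46 genes (0.97 ± 0.10, adjusted p = 0.00266). On day 7 it had 55.0 and 63.4 CPM in PCL-SE and PCL-S, against 52.1 and 52.1 CPM in PCL-E and PCL-O (-0.04 ± 0.10, adjusted p = 0.762). The printed CPM were apart and the TMM values overlapped, total-count scaling turned the effect to 0.18, and the interaction was -1.02 ± 0.15, adjusted p = 0.00465.

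A feature named LOC100359539 carries the same protein annotation as Rrm2, so reads may be split between them. It had 66.6 and 56.9 CPM in PCL-SE and PCL-S on day 3, against 50.6 and 30.1 CPM in PCL-E and PCL-O (0.66 ± 0.16, adjusted p = 0.0357). With the counts of both features summed, a choice made after seeing the data, Rrm2 was still called on day 3 at 0.83 ± 0.12 (adjusted p = 0.00773).

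Rrm1, the catalytic reductase subunit, had 174 and 169 CPM in PCL-SE and PCL-S, against 131 and 104 CPM in PCL-E and PCL-O on day 3 (0.56 ± 0.10, adjusted p = 0.0151). On day 7 its printed CPM overlapped, at 120.2 and 123 CPM in PCL-SE and PCL-S, against 128 and 121 CPM in PCL-E and PCL-O, and with TMM the S7 libraries were below the others, at 104 and 107 TMM-normalised CPM with S7, against 125 and 127 without it (-0.26 ± 0.10, adjusted p = 0.0749), and the interaction was -0.82 ± 0.14, adjusted p = 0.00878. Tk1, the thymidine kinase of S phase, had 56.5 and 54.8 CPM in PCL-SE and PCL-S, against 37.8 and 29.8 CPM in PCL-E and PCL-O on day 3 (0.74 ± 0.13, adjusted p = 0.0135).

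On day 7 Tk1 overlapped between groups, at 38.3 and 44.9 CPM in PCL-SE and PCL-S, against 42.3 and 36.3 CPM in PCL-E and PCL-O (-0.14 ± 0.13, adjusted p = 0.408; 0.087 under total-count scaling), and its interaction was -0.88 ± 0.18, adjusted p = 0.0146. Dut, which removes dUTP, was called on neither day, at 0.28 ± 0.12 on day 3 and -0.31 ± 0.12 on day 7, yet its interaction was -0.59 ± 0.17, adjusted p = 0.0381, lost under total-count scaling. Dut was called lower on day 7 without the E7 term (adjusted p = 0.0457) and after length-trend removal (-0.49 ± 0.10, adjusted p = 0.00783). Tyms, the thymidylate synthase, was called on neither day and lay between 25.5 and 33.7 CPM over all 8 libraries (0.09 ± 0.09, adjusted p = 0.579 on day 3 and -0.08 ± 0.09, adjusted p = 0.486 on day 7 with the day 7 effect at 0.14 under total-count scaling).

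**Figure D3:**
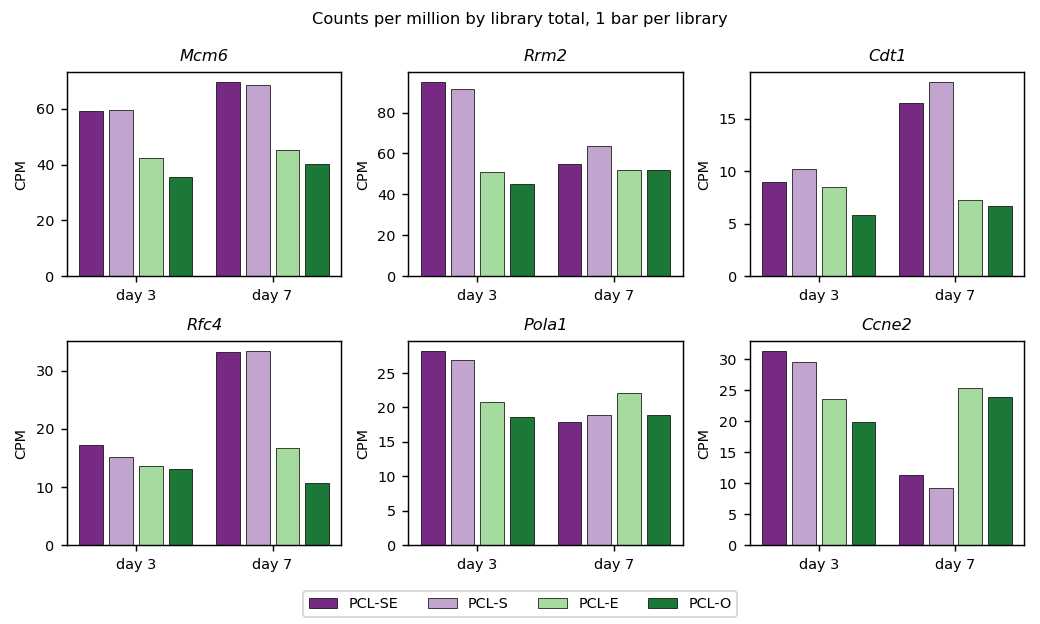
Bars are CPM by library total, 1 bar per library, for 6 genes on day 3 and day 7, with PCL-SE and PCL-S left of PCL-E and PCL-O. Mcm6 is higher with S7 on both days, Rrm2 mainly on day 3, Cdt1 and Rfc4 mainly on day 7, and Pola1 and Ccne2 are higher with S7 on day 3 and lower on day 7.

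Chromatin assembly factor 1 places histones on new DNA. Its large subunit Chaf1a had 28.3 and 26.7 CPM in PCL-SE and PCL-S, against 21.3 and 18.7 CPM in PCL-E and PCL-O on day 3 (0.48 ± 0.10, adjusted p = 0.0241). Day 7 values of Chaf1a were 33.5 and 36.6 CPM in PCL-SE and PCL-S, against 22.6 and 20.8 CPM in PCL-E and PCL-O (0.47 ± 0.10, adjusted p = 0.00779). Chaf1b, the middle subunit, was called on day 7, with 10.5 and 10.8 CPM in PCL-SE and PCL-S, against 7.23 and 6.13 CPM in PCL-E and PCL-O (0.46 ± 0.15, adjusted p = 0.0429), a call lost under DESeq2, without the low-count filter and with an E7 by day term.

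Uhrf1, which recognises hemimethylated DNA behind the fork, had 40.1 and 39.8 CPM in PCL-SE and PCL-S, against 29.9 and 23.2 CPM in PCL-E and PCL-O on day 3 (0.61 ± 0.12, adjusted p = 0.0206). On day 7 it had 31.4 and 33.4 CPM in PCL-SE and PCL-S, against 32.5 and 32.3 CPM in PCL-E and PCL-O, which overlap, and with TMM 27.1 and 29.0 TMM-normalised CPM with S7, against 31.9 and 33.8 without it, which do not; it was not called, with an interaction of -0.84 ± 0.17, adjusted p = 0.0138.

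Cyclin E with its kinase drives the passage from G1 into S phase. Ccne2 had 31.3 and 29.6 CPM in PCL-SE and PCL-S, against 23.6 and 19.8 CPM in PCL-E and PCL-O on day 3 (0.51 ± 0.10, adjusted p = 0.0228). On day 7 it had 11.3 and 9.26 CPM in PCL-SE and PCL-S, against 25.4 and 23.8 CPM in PCL-E and PCL-O (-1.49 ± 0.11, adjusted p = 0.000195), the largest day 7 decrease among the 46 genes. Its interaction of -1.99 ± 0.15, adjusted p = 0.00127 was likewise the largest in size.

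The paralogue Ccne1 had 17.6 and 17.9 CPM in PCL-SE and PCL-S, against 17.8 and 17.4 CPM in PCL-E and PCL-O on day 3. It had 21.8 and 28.9 CPM in PCL-SE and PCL-S, against 24.0 and 22.8 CPM in PCL-E and PCL-O on day 7 and was called on neither day. E2f2, a transcription factor that activates replication genes, lay between 2.13 and 3.46 CPM and was not called. A feature named Necab3 carries the protein annotation of E2F1 and, not being named E2f1, is no member; it had 21.3 and 28.0 CPM in PCL-SE and PCL-S on day 7, against 16.6 and 12.9 CPM in PCL-E and PCL-O (0.51 ± 0.17, adjusted p = 0.0402).

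Day 7 was also set against day 3 within the arms. In PCL-SE and PCL-S, 8 genes were higher on day 7 than on day 3 and 13 lower. The shares over all genes were 24.4% and 26.4% (50.7% in either direction). Total-count scaling made this 19 and 7, against 6255 and 2685 of all 15942 genes, so both shares were near that background. The higher count fell without PCL-S or PCL-SE of day 3 or PCL-S of day 7. The lower count fell without PCL-S of day 3 or PCL-SE of day 7. In each of these fits the count over all genes fell too. In PCL-E and PCL-O, edgeR's quasi-likelihood test called 0 of the 46 higher and 0 lower, against 0.671% and 0.935% of all genes. At an unadjusted p under 0.05 there were 4, all higher on day 7, where 2514 of all 15942 genes passed in either direction. DESeq2 called 0 of the 46 and 827 of all genes.

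The decreases with S7 were led by Ccne2, with 11.3 and 9.26 CPM in PCL-SE and PCL-S on day 7, against 31.3 and 29.6 CPM on day 3 (-1.88 ± 0.11, adjusted p = 0.000113). Rrm2 had 55.0 and 63.4 CPM in those arms on day 7, against 95.1 and 91.3 CPM on day 3 (-0.96 ± 0.10, adjusted p = 0.000553). Pole had 20.7 and 23.9 CPM on day 7, against 37.9 and 38.2 CPM on day 3 (-1.08 ± 0.17, adjusted p = 0.00241). None of these 3 genes overlapped between the days. They were picked for their decreases in this same comparison, and no share without overlap was computed over all genes.

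Among the increases, Rfc4 had 33.2 and 33.4 CPM in PCL-SE and PCL-S on day 7, against 17.1 and 15.2 CPM on day 3 (0.74 ± 0.15, adjusted p = 0.00616). Rpa1 had 113 and 112 CPM on day 7, against 69.8 and 67.1 CPM on day 3 (0.41 ± 0.07, adjusted p = 0.00378). These too did not overlap between days, with the same limit of being picked from this comparison without a share over all genes.

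For E7, edgeR's quasi-likelihood test called 0 of the 46 genes and 0 of all genes tested (0%), while 1 of the 46 and 589 of all genes had an unadjusted p under 0.05, and DESeq2 called 0 of the 46 and 1 of all genes. The smallest adjusted p among the 46 was 0.895. Single arms within a day have 1 library a side and no replicate check, so their log2 ratios (TMM-normalised CPM with 2 added) are values only. PCL-SE over PCL-S had a median of 0.02 over the 46 genes on day 3, from -0.23 in Lig1 to 0.21 in Rpa3, and -0.10 on day 7, from -0.38 in Ccne1 to 0.23 in Ccne2. Of the 46, 26 were higher in PCL-SE on day 3 (48.4% of all genes were) and 11 on day 7 (48.1% of all genes).

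PCL-E over PCL-O had a median of 0.15 on day 3, from -0.17 in Lig1 to 0.53 in Orc1, with 42 of the 46 higher in PCL-E (49.5% of all genes were). On day 7 the median was 0.10, with 35 of the 46 higher (49.9% of all genes). In these ratios, with 2 CPM added, no gene of the 46 differed 2-fold in either E7 pair on either day. The addition shrinks ratios of genes with few counts. Without it Pole2 was past 2-fold on day 7, at 3.83 CPM in PCL-E, against 1.61 CPM in PCL-O. PCL-E lay above PCL-O and below both S7 libraries in 39 of the 46 genes on day 3 (22.8% of all genes did) and in 18 on day 7 (25% of all genes). PCL-SE over PCL-O had medians of 0.47 on day 3, with 46 of 46 higher (50.4% of all genes), and 0.25 on day 7, with 30 higher (48.6% of all genes). PCL-S over PCL-O had medians of 0.46 on day 3, with 45 higher (51% of all genes), and 0.33 on day 7, with 32 higher (48.8% of all genes). All 3 sets of ratios to PCL-O share that library.

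Genes can be compared in level only per length, in the deposited FPKM. By its median over the 8 libraries, Pcna was the most abundant of the 46 at 53.0 FPKM, followed by Rrm2 at 43.0, Rrm1 at 37.8, Dut at 23.1 and Rpa1 at 20.7 FPKM. The ranges of Pcna (46.2 to 82.4 FPKM) and Rrm2 (36.3 to 76.3 FPKM) overlapped. The lowest were E2f2 at 0.575, Cdc45 at 1.02 and Pole2 at 1.70 FPKM. Across the 46 genes the day 7 log2 fold change had a Spearman correlation of -0.25 with gene length, and across all genes -0.21. For the day 3 log2 fold change these were 0.32 and -0.037, and for the interaction -0.32 and -0.20. Genes share libraries and are not independent replicates. The genes called higher on day 7 had a median length of 2288 bases and those called lower 3066 bases. On day 3 the genes called higher had a median of 3165 bases and those not called 2124 bases. The part of gene length in these differences was not tested beyond the removal of its trend.

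Other genes of the same pathways were counted from lists, with the share or number of all genes called beside each count. Of 32 further origin and fork genes tested, 6 were called higher with S7 on day 3, against 7.1% of all genes (median 0.20). On that day 0 were called lower, against 6.87% of all genes. The increases were led by the kinase activator Dbf4 at 0.84 and the Cdt1 inhibitor geminin (Gmnn) at 0.74. On day 7, 2 were called higher and 9 lower, against 24.9% and 26.2% of all genes (median -0.18). The share called lower was thus near that of all genes. Atad5, which unloads PCNA, stood at -1.16 and Dbf4 at -0.81. Total-count scaling gave 8 higher and 5 lower on day 7, against 5642 and 3010 of all 15942 genes, and turned the day 7 median to 0.047.

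Of 31 further nucleotide supply genes, 4 were called higher and 2 lower on day 3, against 7.1% and 6.87% of all genes (median 0.18). Day 7 gave 18 higher and 3 lower, against 24.9% and 26.2% of all genes (median 0.38). The day 7 increases were led by Umps of pyrimidine synthesis at 1.21 and Atic of purine synthesis at 1.04. The purine enzyme Impdh2 was called on both days, at 0.63 on day 3 and 0.94 on day 7.

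Of 26 further G1/S regulators, 7 were called higher and 3 lower on day 3, against 7.1% and 6.87% of all genes (median 0.29). Day 7 gave 5 higher and 10 lower, against 24.9% and 26.2% of all genes (median -0.15). Under total-count scaling day 7 gave 9 higher and 6 lower, against 5642 and 3010 of all 15942 genes (median 0.073). Myc, a growth-promoting transcription factor, was higher on both days at 1.34 and 2.09, and cyclin D1 (Ccnd1) was higher on day 7 at 1.26. The kinase inhibitor gene Cdkn2b was lower on day 7 at -1.18, and cyclin D2 (Ccnd2) at -1.13. The inhibitor gene Cdkn1a, named after its values were seen, was lower on day 3 at -0.62 and higher on day 7 at 0.95. It had 968 and 977 CPM in PCL-SE and PCL-S, against 499.6 and 370.4 CPM in PCL-E and PCL-O on day 7. Of 27 mitosis genes, 26 were called on day 3, each higher, against 7.1% of all genes (median 0.68). On day 7, 20 were called, each lower, against 26.2% of all genes (median -0.71). Under total-count scaling 15 were called lower on day 7, against 3010 of all 15942 genes (median -0.49). Kif23 and Cenpe, motor proteins of the spindle, stood at -1.63 and -1.57 on day 7.

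**Figure D4:**
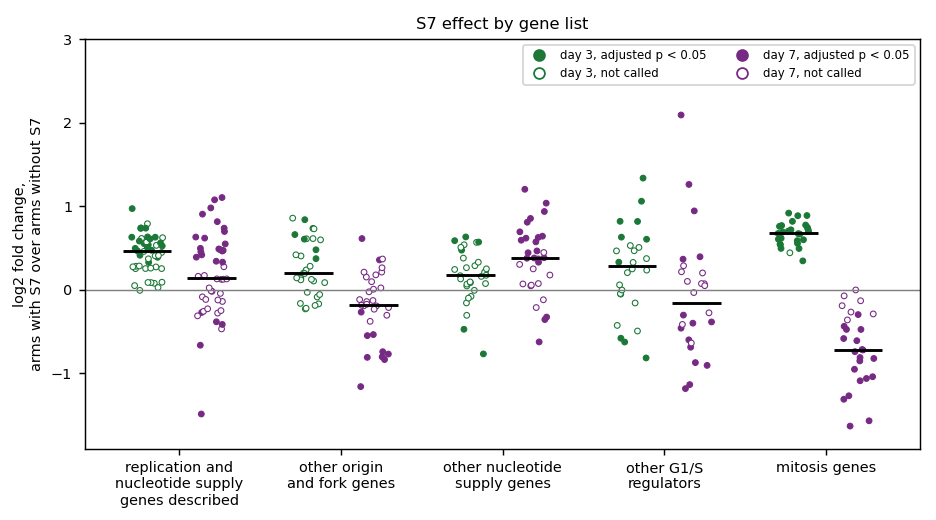
Points are log2 fold changes of the arms with S7 over the arms without it, 1 per gene, for the 46 genes described and 4 lists of related genes, green for day 3 and purple for day 7, with filled points called and a black line at each median. The 46 genes have medians of 0.46 on day 3 and 0.15 on day 7, and the mitosis genes medians of 0.68 and -0.71.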

How the data were processed

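The study measured messenger RNA in 8 libraries, 1 per arm and day. Each library has a column of whole-number read counts, as deposited per the file headers. No aligner, counter or strand setting is given in the sources used here. The submitters' processing notes name mm10, whereas 22050 of 26873 features carry rat Ensembl identifiers. The deposited FPKM values, scaled by the authors per length and library, per the file headers, served only to compare levels between genes and to derive lengths. In the table, 10 lines that were fragments of annotation text were left out.

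CPM were computed from library totals of 32950326 to 41754124. Low counts were removed with filterByExpr of edgeR 4.0.16 under R 4.3.3. After TMM scaling, terms for S7, day, S7 by day and E7 were fitted over all 8 libraries (5 coefficients, 3 residual degrees of freedom, common coefficient of variation 0.137) with quasi-likelihood F-tests, adjusted by Benjamini-Hochberg over 15942 genes. Errors are standard errors of log2 fold changes, except SDs of CPM where stated. The fit was tested on simulated data. Alternatives were DESeq2 1.42.0, its size factors in edgeR, total-count scaling, no low-count filter, other E7 terms and leaving out each library. Length-trend removal (a smoothed trend on gene length, set as an offset in edgeR) and summed Rrm2 copies were added after seeing the data.

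Every member could be named, ordered within each role by the smallest p; of each further list, at most 4 called genes with the largest change. The members and lists were chosen with earlier results of these data known. Tables and figures used Python 3.11.15, pandas 2.3.3, scipy 1.17.1 and matplotlib 3.10.9.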

Additional observations from a re-analysis of the deposited data

Results flagged for a closer look

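For 14 of the 46 genes, a share close to the 28.7% of all genes, the S7 effect differed between day 7 and day 3 by the interaction term of the edgeR fit (quasi-likelihood test, Benjamini-Hochberg adjustment). The interaction was positive, a higher S7 effect on day 7, in Pcna (0.41) and Rfc4 (0.80). It was negative in Ccne2 (-1.99), Pole (-1.04), Mcm10 (-1.02), Rrm2 (-1.02), Cdc6 (-0.92), Pola1 (-0.88), Tk1 (-0.88), Cdc45 (-0.84), Uhrf1 (-0.84), Rrm1 (-0.82), Mcm4 (-0.60) and Dut (-0.59), all on the log2 scale. A negative interaction was also called in 26 of 27 mitosis genes, against 15.5% of all genes. The marker sums and TMM factors of the day 7 S7 libraries stood apart too, as given above. The part of these lists and factors in the differences was not tested.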

How the results depend on the processing

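No paired analysis was possible because each arm and day has 1 library and the labels carry no replicate numbers that link cultures. Total-count scaling changed the genes called lower with S7 on day 7 to 2, the interaction calls with a higher effect on day 7 to 7, and the day calls with S7 to 19 higher and 7 lower. Over all 15942 genes the matching counts were 3010, 3721, and 6255 higher and 2685 lower. The same scaling turned the uncalled day 7 effects of Rrm2, Tyms and Tk1 to 0.18, 0.14 and 0.087. An E7 by day term left 1 interaction call with a higher effect on day 7 and, without S7, 143 day calls over all genes (256 in the reported fit), where DESeq2 made 827; DESeq2 made 1 E7 call. Size factors of DESeq2 in edgeR changed no call of a named member.

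Leaving out each library in turn gave 1 to 25 genes called higher on day 3 (257 to 3847 calls over all genes), 9 to 19 higher and 1 to 5 lower on day 7 (5003 to 8326 over all genes), interactions in 0 to 5 genes upward and 3 to 15 downward (1537 to 6219 over all genes), and day calls with S7 in 0 to 10 upward and 7 to 16 downward (4479 to 9206 over all genes). Without S7 the day calls were 0 to 1 lower (0 to 1347 over all genes). The uncalled effect of Tyms on day 3 ran from -0.012 (without PCL-O day 3) to 0.20, that of Rrm2 on day 7 from -0.17 to 0.081 (without PCL-SE day 7; 0.0062 without PCL-O day 7), and that of Tk1 on day 7 from -0.34 to 0.054 (without PCL-SE day 7). The cause was not tested in any of these. With 1 library per arm and day, no difference between single arms has a replicate check, and genes of few counts, such as E2f2, Pole2 and Gins1, have the widest errors.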
